A study of Homo sapiens with 4 samples.

Results

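The IGF system was examined in SUM159, a triple-negative breast cancer cell line with mesenchymal features, through 10 genes: the receptors IGF1R, INSR and IGF2R, the ligand IGF2, and the 6 binding proteins IGFBP2, IGFBP3, IGFBP4, IGFBP5, IGFBP6 and IGFBP7. The genes were taken by symbol from a table of 23394 genes, and 8 of the 10 passed the low-count filter, against 13915 genes in all. The 2 control libraries came from cells given DMSO and the 2 knockdown libraries from cells given doxycycline, which switches on a small interfering RNA against SHARP (the gene SPEN, a transcriptional corepressor). All cells grew in F12 medium with serum, hydrocortisone and insulin, so a ligand of INSR was in the medium of both groups. Doxycycline was given to the knockdown cells alone, so effects of the drug and of the knockdown cannot be told apart. It is not stated whether the control cells carried the construct, or whether the libraries of a group came from separate cultures. If they did not, the p-values rest on technical spread alone.

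Insulin-like growth factors act through IGF1R, a receptor tyrosine kinase. INSR is its close relative, and both receptors can pair into hybrids. IGF2R carries no kinase: it takes IGF2 into the cell for degradation and, as the cation-independent mannose 6-phosphate receptor, brings newly made enzymes to the lysosome. The IGFBPs are secreted proteins that bind IGFs outside the cell, and proteases that cut them release the ligand. In breast cancer, signalling by IGFs through IGF1R and INSR is known for promoting growth and survival.

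The promoters of 3 members are shown, 2 of genes that were lower and 1 of a gene that was higher in the knockdown, so that their base composition can be seen beside the values. Each run is the 250 bases before the annotated start, 5′ to 3′ on the gene's strand, from RefSeq on GRCh38.p14. The counts were made on GRCh37. In INSR (minus strand, chr19:7294415-7294664) the capitals mark the GC box GGGCGG. In IGF2R (plus strand, chr6:159968832-159969081) they mark the E-box CACGTG. In IGFBP6 (plus strand, chr12:53097417-53097666) they mark TGGGAA, a core of the sites bound by RBPJ, a DNA-binding partner of SPEN.
INSR: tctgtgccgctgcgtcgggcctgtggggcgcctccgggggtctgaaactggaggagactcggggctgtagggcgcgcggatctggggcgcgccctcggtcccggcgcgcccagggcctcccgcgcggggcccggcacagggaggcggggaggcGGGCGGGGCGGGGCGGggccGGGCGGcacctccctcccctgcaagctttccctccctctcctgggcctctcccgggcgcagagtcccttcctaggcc
IGF2R: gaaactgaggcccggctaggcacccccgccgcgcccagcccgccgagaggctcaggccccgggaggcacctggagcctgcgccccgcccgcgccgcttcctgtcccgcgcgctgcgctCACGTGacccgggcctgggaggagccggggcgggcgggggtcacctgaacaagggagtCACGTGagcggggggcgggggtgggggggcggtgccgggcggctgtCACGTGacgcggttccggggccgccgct
IGFBP6: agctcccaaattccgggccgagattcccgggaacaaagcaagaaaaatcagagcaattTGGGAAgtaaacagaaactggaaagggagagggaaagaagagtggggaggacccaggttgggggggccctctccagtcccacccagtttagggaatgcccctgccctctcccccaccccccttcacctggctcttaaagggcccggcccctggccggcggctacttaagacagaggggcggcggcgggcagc

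The INSR stretch was 78.4% G and C and held 4 GC boxes, of which neighbours in the first 3 share a base. The IGF2R stretch was 79.2% G and C, with 3 E-boxes and also 6 GC boxes, some of them overlapping. The IGFBP6 stretch was 61.2% G and C, with 1 TGGGAA and 1 GC box. On either strand, a GC box occurred in 42.6% of 35116 RefSeq promoters of this length, TGGGAA in 20.8% and the E-box, which reads the same on both strands, in 6.34%. Of the 10 members, 8 had an entry, and IGF2 and IGFBP7 did not. TGGGAA was also found once each in IGFBP4 and IGFBP5, and TATAAA, present in 10.7% of promoters, in IGFBP4 alone. INSR and IGF2R held 0 TGGGAA. GC boxes were also found in IGF1R (2), IGFBP3 (2), IGFBP4 (1) and IGFBP2 (0 or 1 by entry). The capitals mark a different motif in each promoter shown, so they do not compare the genes. These matches are letters in a window, not bound sites.

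Total counts per library were 15641296 to 17197715. Counts of the targeted gene SPEN were 3129 and 3208 in the controls against 1660 and 1666 in the knockdown, lower in both libraries labelled as knockdown. Values below are CPM, counts scaled to library size with TMM factors, given for each library or with the SD of 2 libraries, and log2 ratios are knockdown over control. Adjusted p-values come from edgeR's quasi-likelihood test over all tested genes unless another tool is named. The mesenchymal markers VIM, FN1, CD44, SPARC, AXL, ZEB1 and CDH2 were detected in every library, and their summed level was 6938 and 6927 CPM in the controls against 9371 and 9310 CPM in the knockdown. VIM alone was at 3259 and 3254 CPM in the controls against 5059 and 4981 CPM in the knockdown. CDH2 was not called, and FN1, CD44 and ZEB1 were called higher but did not pass against a fold of 1.2. Among 7 epithelial or luminal markers CDH1, GRHL2 and KRT19 had 0 counts, and the sum of 182 to 185 CPM was nearly all KRT18. For 7 leukocyte markers the sum was 36.5 and 40.4 CPM in the controls against 46.2 and 46.5 CPM in the knockdown, of which CD68 gave 29.1 to 40.7 CPM, while PTPRC stayed at 0.259 to 0.584 CPM. The endothelial sum was at most 2.56 CPM and the hepatocyte sum at most 0.453 CPM. Whether the mesenchymal or leukocyte sums have a part in the results on the IGF genes was not tested.

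INSR and IGF2R fell in the knockdown, IGFBP2 and IGFBP3 fell at low levels, and IGFBP6 and IGFBP7 rose. IGF1R was called higher by a small amount, and IGFBP4, per kilobase the most abundant binding protein, was not called. At an edgeR adjusted p under 0.05, 4 of 8 tested members were lower and 3 higher, where 24.9% of all tested genes were lower and 25.1% higher. Against a fold change of at least 1.2, 3 members were lower (INSR, IGF2R and IGFBP3) and 2 higher (IGFBP6 and IGFBP7), where 9.38% and 8.74% of all tested genes were called. The groups did not overlap for all 8 tested members, and they did not for 74.3% of the tested genes. The median log2 ratio was -0.23 over the 8 members and 0.0012 over all tested genes, and the median absolute value was 0.50 against 0.22. In bulk RNA, fewer cells of a kind and less RNA per cell cannot be told apart.

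**Figure D1:**
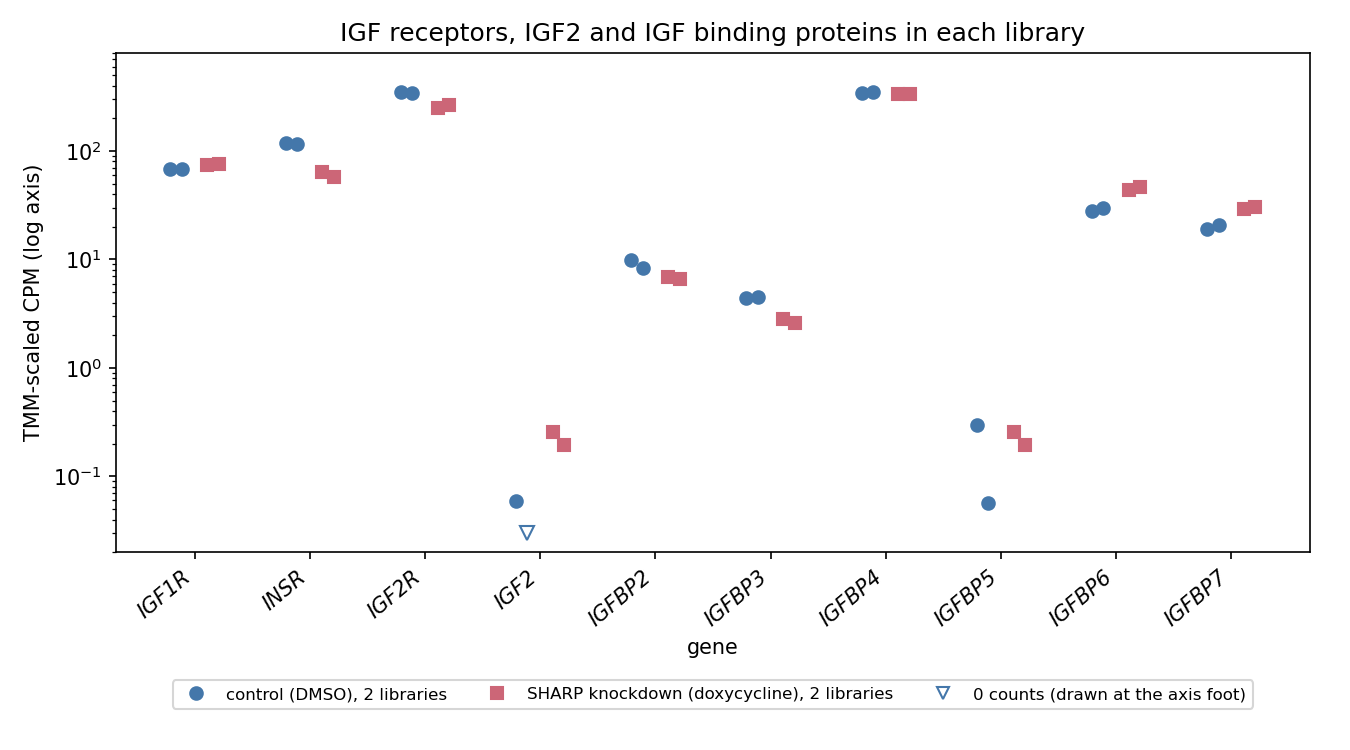
TMM-scaled CPM (log axis) of the 10 genes in each of the 4 libraries, circles for the controls and squares for the knockdown, with an open triangle for a library with 0 counts. INSR dropped from 118 and 117 CPM to 63.8 and 57.4 CPM, and IGF2 and IGFBP5 lay under 0.3 CPM in every library.

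The insulin receptor INSR had the largest log2 ratio in size among the 8 tested members. Its level was 118 and 117 CPM in the controls against 63.8 and 57.4 CPM in the knockdown, so both knockdown libraries lay far below both controls. It fell by 48.4% (117 ± 1.01 to 60.6 ± 4.54 CPM, n = 2 each), with a log2 ratio of -0.95 (SE 0.054, edgeR adjusted p = 1.86e-09). The counts do not separate the splice forms of the receptor.

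IGF2R, the scavenger of IGF2 and sorting receptor for lysosomal enzymes, was also per kilobase of transcript the most abundant of the 3 receptors. It lay at 347 and 344 CPM in the controls against 250 and 265 CPM in the knockdown, again without overlap. The fall was 25.5% (log2 ratio -0.42, SE 0.028, edgeR adjusted p = 1.23e-08).

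IGF1R, the main signalling receptor of IGF1 and IGF2, moved little. Its level was 67.8 CPM in both controls and 74.1 and 75.1 CPM in the knockdown, a 1.10-fold difference (log2 ratio 0.14, SE 0.047, edgeR adjusted p = 0.0248). The call was lost without control replicate 1 (adjusted p = 0.0732), without control replicate 2 (0.131) and without knockdown replicate 2 (0.125). It was also lost with DESeq2 (0.124) and with scaling by library size alone (0.123), and over all alternatives the adjusted p ran from 0.0150 to 1.0.

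**Figure D2:**
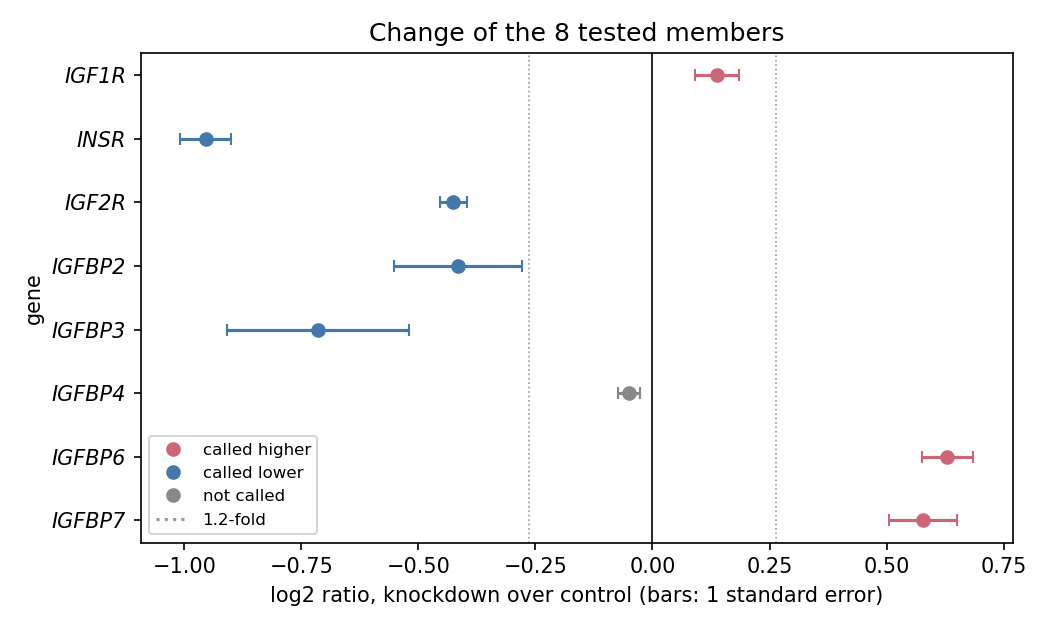
Log2 ratio, knockdown over control, of the 8 tested members, with bars of 1 standard error and dotted lines at a 1.2-fold change. INSR at -0.95 and IGFBP6 at 0.63 mark the ends of the range, while IGF1R at 0.14 and IGFBP4 at -0.05 lie inside the dotted lines.

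Levels of the receptors were compared per kilobase of their longest annotated coding transcript (12235 bases for IGF1R, 8954 for INSR and 14044 for IGF2R in GENCODE 29). INSR stood at 2.38 and 2.35 times the level of IGF1R in the controls against 1.18 and 1.04 times in the knockdown. INSR was thus clearly above IGF1R in both controls and close to it in both knockdown libraries. With the joined exons of all coding transcripts as the length, the ratio was 2.34 and 2.32 in the controls against 1.16 and 1.03 in the knockdown. IGF2R per kilobase was 4.45 and 4.42 times IGF1R in the controls against 2.94 and 3.07 times in the knockdown. With 2 libraries against 2, an exact permutation test cannot give a p below 0.333, so these ratios are given without one.

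Transcripts of the ligands were few. IGF2, a fetal growth factor that many tumors express, had 1 and 0 counts in the controls against 4 and 3 in the knockdown, too few for the test. Over each group this was 0.0292 and 0.227 CPM, a ratio of 7.76 with an exact 95% counting interval of 0.997 to 349.8, and a floor of 3 counts over a group is 0.0877 CPM in the controls and 0.0972 CPM in the knockdown. The deposited values of IGF2 were not all whole numbers, and the missing fractions stood at the read-through gene INS-IGF2, which overlaps it, so how those reads were assigned is uncertain. IGF1, the other ligand, was at 2.68 and 2.41 CPM in the controls against 2.14 and 2.34 CPM in the knockdown and did not pass the edgeR test (log2 ratio -0.19, adjusted p = 0.546). INS had 0 counts in every library.

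Among the binding proteins, IGFBP6 and IGFBP7 rose. IGFBP6, which prefers IGF2 to IGF1, was at 28.3 and 30.1 CPM in the controls against 43.8 and 46.5 CPM in the knockdown, a 1.55-fold rise. IGFBP7, which binds IGFs weakly and is a secreted matrix-associated protein, was at 19.1 and 20.9 CPM in the controls against 29.0 and 30.7 CPM in the knockdown, a 1.49-fold rise. For both genes each knockdown library lay above each control. The log2 ratios were 0.63 (SE 0.055) and 0.58 (SE 0.073), with edgeR adjusted p of 2.37e-07 and 1.09e-05.

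IGFBP3 and IGFBP2 fell from low levels. IGFBP3, the main carrier of IGFs in blood, had 74 and 79 counts in the controls against 44 and 40 in the knockdown, or 4.41 and 4.53 CPM against 2.85 and 2.60 CPM. Its log2 ratio was -0.71 (SE 0.19, edgeR adjusted p = 0.00663). The IGFBP3 call was lost without control replicate 1 (adjusted p = 0.0517), without control replicate 2 (0.0546) and with DESeq2 (0.0731), where the range over alternatives was 0.00318 to 0.0731.

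IGFBP2, which also binds integrins, had 165 and 144 counts in the controls against 107 and 102 in the knockdown, or 9.84 and 8.26 CPM against 6.93 and 6.62 CPM. The control libraries differed from each other by about as much as the lower control differed from the knockdown. Its log2 ratio was -0.42 (SE 0.14, edgeR adjusted p = 0.0196). Without control replicate 1 the log2 ratio was -0.29 (adjusted p = 0.189), without the low-count filter the adjusted p was 0.0547 and with DESeq2 0.128, in a range of 0.00894 to 0.198 over the alternatives.

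IGFBP4, the substrate of the protease PAPPA, was not called. It was at 345 and 348 CPM in the controls against 334 and 336 CPM in the knockdown, and the log2 ratio of -0.05 (SE 0.023) did not pass the edgeR test (adjusted p = 0.0871). IGFBP4 was called lower with upper-quartile scaling (adjusted p = 0.0435) and with library size alone (0.00277), in a range of 0.00277 to 1.0. IGFBP5 had 5 and 1 counts in the controls against 4 and 3 in the knockdown, and no difference was detectable at this depth (ratio 1.29, exact 95% counting interval 0.372 to 4.66). Intervals and floors cover counting error only.

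Per kilobase of the longest coding transcript, IGFBP4 stood far above every other member, at 157 and 158 CPM per kilobase in the controls. IGFBP6 (24.0 and 25.6) and IGF2R (24.7 and 24.5) came next and overlapped in the controls. With the joined exon length IGF2R was above IGFBP6, at control means of 24.6 and 21.7. IGFBP7 (13.4 and 14.6) and INSR (13.2 and 13.0) followed, and their order also turned with the joined exon length (11.0 against 12.9). Then came IGFBP2 (6.84 and 5.74), IGF1R (5.55 and 5.54) and IGFBP3 (1.83 and 1.88), with IGFBP5 and IGF2 under 0.05 CPM per kilobase. With the joined exon length the control means of IGFBP2 and IGF1R were 5.77 and 5.54. In the knockdown libraries IGFBP6 (37.2 and 39.5) was above IGF2R (17.8 and 18.9), and IGFBP7 (20.3 and 21.5) was above INSR (7.13 and 6.41). INSR and IGF1R (6.05 and 6.14) then lay side by side above IGFBP2 (4.81 and 4.60).

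The make-up of the pool of binding protein transcripts differed between the groups. Summed over the 6 IGFBPs, the level per kilobase was 203 and 206 in the controls against 215 and 219 in the knockdown. IGFBP4 made up 77.3% and 76.8% of this sum in the controls against 70.5% and 69.6% in the knockdown. IGFBP6 went from 11.8% and 12.4% to 17.3% and 18.0%, and IGFBP7 from 6.59% and 7.10% to 9.44% and 9.81%. The shares of IGFBP2 (3.37% and 2.79% to 2.24% and 2.10%) and IGFBP3 (0.901% and 0.912% to 0.548% and 0.491%) were smaller in the knockdown.

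**Figure D3:**
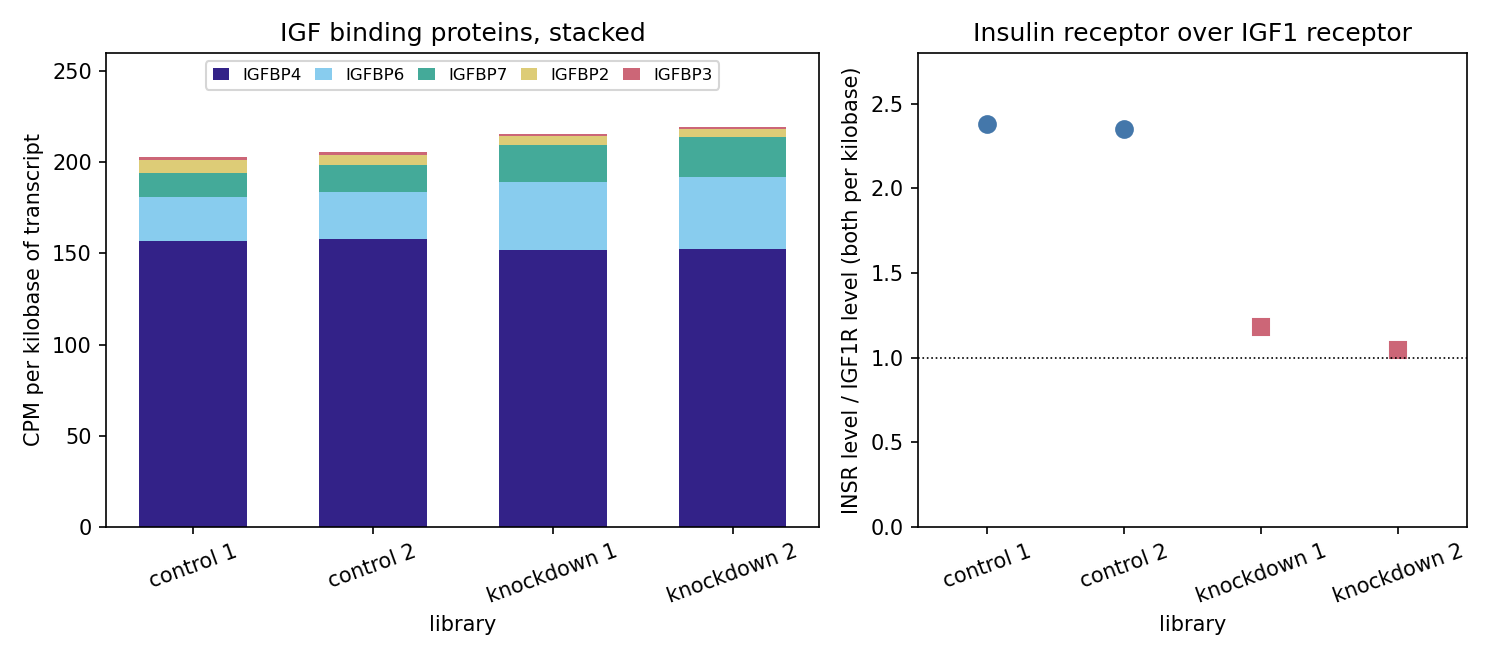
Left, level per kilobase of transcript of 5 binding proteins stacked by library (IGFBP5, under 0.05, is left out). Right, level of INSR divided by that of IGF1R, both per kilobase, in each library, with a dotted line at equal levels: the controls lie at 2.38 and 2.35 and the knockdown libraries at 1.18 and 1.04.

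Of the remaining genes of the family, IGF1, INS, INS-IGF2, INSRR, IGFBP1, IGFALS and IGFBPL1, IGF1 was the only one tested, with 33 to 45 counts a library. IGFBP1, the binding protein that insulin represses in liver, and INSRR, the orphan relative of INSR, had 1 count each in knockdown replicate 2 and 0 elsewhere. IGFALS, which joins the circulating IGFBP3 complex, had 3 to 7 counts a library, and INS-IGF2 and IGFBPL1 had none to the nearest whole count.

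Adaptors and the PI3K-AKT pathway carry the signal of IGF1R and INSR. Of 30 tested genes, 9 were higher and 10 lower, where 25.1% and 24.9% of all tested genes were called, and the median log2 ratio was 0.012. Against a fold of 1.2, 4 were higher and 1 lower, where the shares over all tested genes were 8.74% and 9.38%. These counts lie near the background or rest on few genes, so nothing is read from them about the pathway as a whole. IRS2, the docking protein of both receptors, was among the higher genes, from 99.6 ± 5.56 to 184 ± 0.904 CPM (log2 ratio 0.89, SE 0.041, edgeR adjusted p = 1.93e-10). PTPN1, a phosphatase that removes phosphates from the activated insulin receptor, rose by a log2 ratio of 0.46 and GRB10, an adaptor that inhibits both receptors, by 0.53. The adaptor SHC1 fell by 0.20 in log2, from 439 ± 9.98 to 380 ± 3.02 CPM, which did not pass against 1.2-fold. The 1 gene lower against 1.2-fold was PDPK1 (log2 ratio -0.42), and PHLPP2 (0.49) was higher against it beside IRS2, PTPN1 and GRB10. INSR was thus lower in the same libraries in which its docking protein IRS2 and its inhibitors PTPN1 and GRB10 were higher. In those libraries IRS1 (0.32) was also called higher, GRB2 (-0.19) and SOS1 (-0.125) were called lower like SHC1, and PTPN11 and SH2B1 were not called. Whether these differences are linked was not tested.

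Proteases of the IGFBPs and the proteins that inhibit them set how much ligand is released. Of 11 tested genes, 4 were higher and 4 lower, where 25.1% and 24.9% of all tested genes were called. Against 1.2-fold 4 were higher and 3 lower, where the shares were 8.74% and 9.38%. The median log2 ratio of the 11 was 0.035. The stanniocalcins, which inhibit PAPPA, both rose: STC1 had 42 and 36 counts in the controls against 230 and 217 in the knockdown (2.28 ± 0.311 to 14.5 ± 0.573 CPM, log2 ratio 2.66, SE 0.15), and STC2 went from 140 ± 6.18 to 202 ± 0.0407 CPM (log2 ratio 0.53). PAPPA itself did not pass the edgeR test (1.75 ± 0.448 against 2.33 ± 0.455 CPM, adjusted p = 0.241). CTSD, the lysosomal protease cathepsin D, fell by 0.83 in log2, from 467 ± 9.70 to 263 ± 1.88 CPM, and the gelatinase MMP2 fell by 0.53. The called proteases did not move in 1 direction: ADAMTS1 (log2 ratio 1.63) and ADAM12 (0.475) rose, and both passed against 1.2-fold. ADAM9 (-0.50) and PAPPA2 (-0.29) fell, of which ADAM9 passed against 1.2-fold. Whether cleavage of the IGFBPs differed was not tested. The highest edgeR adjusted p of STC1, STC2, CTSD and MMP2 was 9.46e-08.

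FOXO factors, which AKT restrains when the receptors are active, and their targets formed a list that holds INSR itself. Of 14 tested genes, 3 were higher and 6 lower, where 25.1% and 24.9% of all tested genes were called. Against 1.2-fold 3 passed in each direction, where the shares were 8.74% and 9.38%, and the median log2 ratio was -0.019. FOXO1 rose from 198 ± 0.922 to 286 ± 1.13 CPM (log2 ratio 0.53, SE 0.026, edgeR adjusted p = 3.21e-10). IRS2 rose and INSR fell, both known targets of FOXO factors. Among the other called genes, BCL6 rose (log2 ratio 0.34), and PDK4 (-1.865), SESN3 (-0.945), FOXO4 (-0.41) and KLF15 (-0.36) fell. Of these, BCL6, PDK4 and SESN3 passed against 1.2-fold. PDK4 had 58 and 68 counts in the controls against 13 and 18 in the knockdown. TXNIP, an inhibitor of thioredoxin and of glucose uptake, fell by 0.27 on the log2 scale and did not pass against 1.2-fold.

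The machinery that sorts IGF2R and its cargo, or cuts the receptor precursors, was called about as often as other genes: of 18 tested genes, 6 were higher and 4 lower, where 25.1% and 24.9% of all tested genes were called. Against 1.2-fold 0 were higher and 1 lower, where the shares were 8.74% and 9.38%, and the median log2 ratio was 0.048. The 1 lower gene was SNX5, a sorting nexin that binds the tail of IGF2R, which fell from 146 ± 0.181 to 101 ± 4.98 CPM (log2 ratio -0.54, SE 0.043, edgeR adjusted p = 7.92e-08). The retromer subunit VPS35 (0.30), the clathrin adaptor subunit AP1M1 (0.34) and GNPTAB (0.32) rose on the log2 scale. GNPTAB encodes subunits of the enzyme that makes the mannose 6-phosphate tag. GNPTG, for another subunit of this enzyme, went the other way (-0.34), and NAGPA (-0.30) and PCSK7 (-0.26) were also called lower. VPS29 (0.29), SNX6 (0.22) and FURIN (0.14) were also called higher, and PCSK6 was not called. IGF2R and its cargo CTSD were thus both lower while M6PR, the other receptor of this tag, did not pass the edgeR test (log2 ratio 0.066, adjusted p = 0.159).

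Of the genes tied to IGF2 mRNA or its locus, 3 were tested. IGF2BP2, an RNA-binding protein named for binding that mRNA, rose from 97.8 ± 0.836 to 163 ± 8.46 CPM (log2 ratio 0.74, SE 0.043, edgeR adjusted p = 2.55e-09), with IGF2 itself near 0 counts. H19, the imprinted noncoding neighbour of IGF2, had 14 and 17 counts in the controls against 5 and 6 in the knockdown (log2 ratio -1.33, SE 0.45, edgeR adjusted p = 0.0224). The H19 call was lost without control replicate 1 (adjusted p = 0.0577), control replicate 2 (0.104), knockdown replicate 1 (0.169) or knockdown replicate 2 (0.110), with DESeq2 (0.215) and against 1.2-fold (0.0660). Over the 13 alternatives in which it was tested its adjusted p ran from 0.0165 to 0.215. It dropped out under the stricter low-count filter (1 CPM or more in 2 libraries), where 0 genes of this list were lower in the knockdown.

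**Figure D4:**
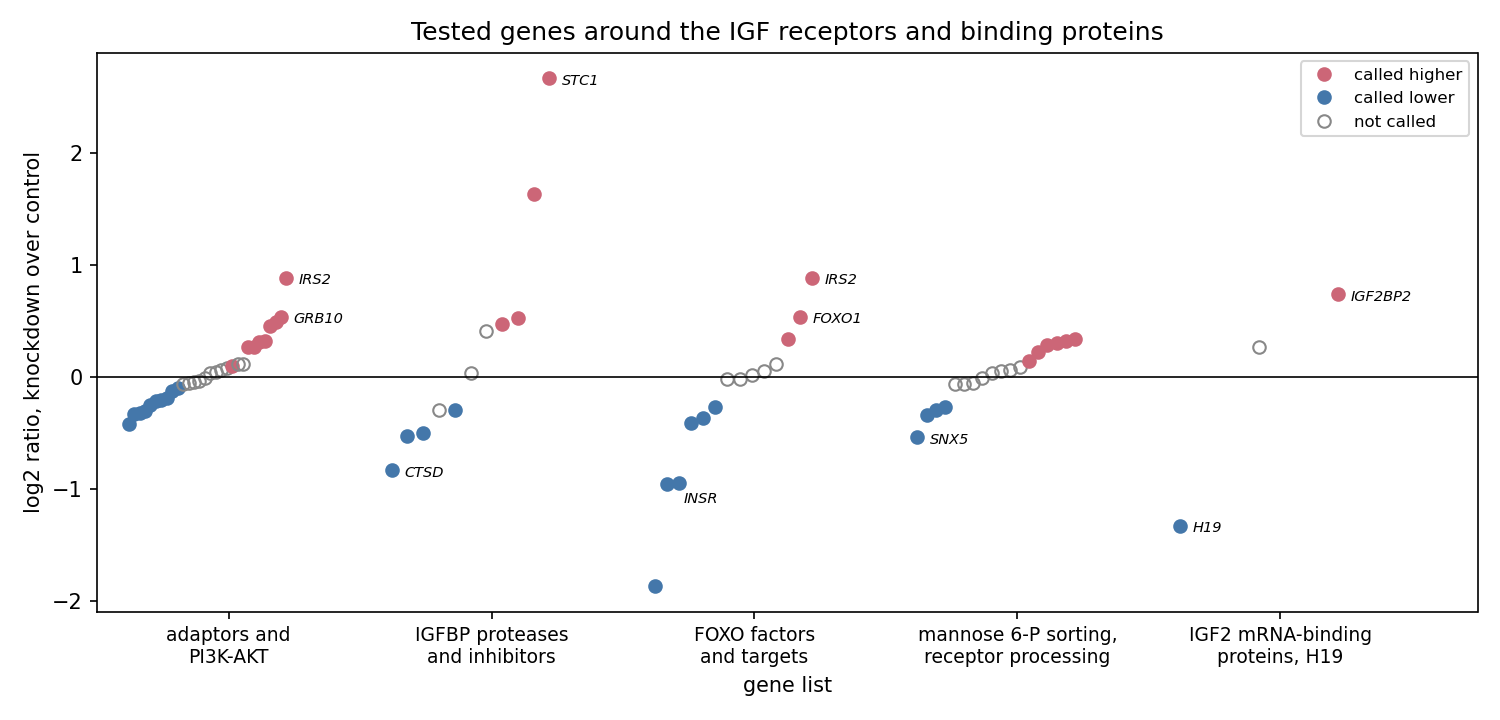
Log2 ratio, knockdown over control, of each tested gene in 5 lists around the IGF receptors and binding proteins, in ascending order within a list, filled where called in edgeR's quasi-likelihood test. STC1 at 2.66 is the highest point, and the sorting list lies within -0.54 and 0.34.

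The genes whose 4 centred log2 CPM values lay nearest to those of INSR, by Euclidean distance over the 4 libraries, were LAPTM5 (distance 0.0456), CMC1 (0.0520) and HPSE (0.0538). LAPTM5, a lysosomal membrane protein, was at 186 and 182 CPM in the controls against 99.8 and 93.1 CPM in the knockdown. HPSE, the heparan sulfate degrading enzyme heparanase, was at 19.1 and 18.6 CPM against 10.6 and 9.47 CPM. With 4 libraries in 2 groups, likeness of this kind reflects little more than a similar difference between the groups.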

How the data were processed

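The deposited table holds estimated counts by gene symbol without normalisation, with fractional values in 591 of 23394 genes. Reads were aligned with STAR on GRCh37, per the submitters' processing notes, from polyadenylated RNA, per the labels' protocols. Not given in the sources used here are the counter, the annotation and the strand setting. Columns were matched to samples by name, and 0 were left unused. Counts were rounded and tested with edgeR 4.0.16 under R 4.3.3 (quasi-likelihood test by glmQLFTest, two-sided, TMM scaling, filterByExpr with a minimum count of 10, group as the single term), with Benjamini-Hochberg adjustment over all 13915 tested genes. The libraries of a group differed by more than sampling noise (chi-square per degree of freedom 2.06 and 1.74) and were kept separate. The spread beyond sampling noise was small, with a common coefficient of variation of 2.69% in edgeR. Neither value tells whether the libraries came from separate cultures. glmTreat tested against a fold of 1.2. Alternatives were RLE, upper-quartile and library-size scaling, 2 other filters, DESeq2 1.42.0, limma-voom (limma 3.58.1), a block for the replicate number, leaving out each library, and an adjusted p under 0.01.

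The members and lists were chosen with earlier results of these data known. Named are the members, SPEN, the rest of the family, up to 4 called genes with the smallest adjusted p of each list, and the 3 genes most like the most changed member. PAPPA, M6PR and the further genes named from the lists, such as PDPK1, ADAMTS1, PDK4 and GNPTG, were named after their values were seen. On simulated counts, false calls stayed under the threshold where dispersions followed the trend and exceeded it where each gene kept its own estimated dispersion.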

Additional observations from a re-analysis of the deposited data

How the results depend on the processing

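Over 14 alternatives, INSR, IGF2R, IGFBP6 and IGFBP7 kept their direction and their call, with log2 ratios of -1.03 to -0.88, -0.47 to -0.38, 0.58 to 0.67 and 0.52 to 0.64. The calls of IGF1R, IGFBP2, IGFBP3 and IGFBP4 changed under 7, 5, 3 and 2 of the 14, and of 112 values of tested members 0 changed sign. The glmTreat and stricter adjusted p alternatives keep the log2 ratios of the main fit, so their signs could not change. Every alternative draws on the same 4 libraries. The count of members lower in the knockdown, 4, was 2 with DESeq2, 3 without the low-count filter, and 5 with upper-quartile scaling or library size alone. The count of members higher, 3, was 2 with DESeq2 or library size alone. Both counts were also smaller when either control library was left out, and the count of members higher was smaller without knockdown replicate 2. The counts thus depend on single libraries. At an adjusted p under 0.01, 3 members were lower and 2 higher. Against a fold of 1.2, 1216 genes were higher and 1305 lower over all tested genes (3499 and 3471 against no change), and 11 and 8 over the genes of the pathway lists (22 and 25). With the replicate number as a block, 3 members were higher and 4 lower, and 3609 and 3602 of all tested genes. The libraries share only a number, and deviations from the group means correlated at 0.191 between libraries of the same number. Depth limits IGF2, IGFBP5 and H19, which have under 20 counts a library.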
